A study of Mus musculus with 4 samples.

Results

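Cullin-3 (Cul3) is the scaffold of a family of ubiquitin ligases that pick their substrates through adaptor proteins with a BTB domain. The adaptors studied here were the kelch, KCTD, KBTBD and BTBD proteins together with Spop, Spopl, Tnfaip1, Rhobtb1, Rhobtb2, Ivns1abp and Ibtk. They were found by gene symbol in the platform annotation, and Keap1, the adaptor of the antioxidant factor NRF2, was left out by the same rule. In all, 78 genes qualified out of 18193 named on the array, through 148 of its 34945 single-gene probe sets. The 78 comprised 33 KLHL, 18 KCTD, 11 BTBD and 9 KBTBD genes and the 7 others named above.

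In these ligases the BTB domain of the adaptor docks on Cul3, and a second domain, such as a kelch propeller or a MATH domain, holds the substrate. Many KCTD proteins assemble into rings through their BTB domain, and not every KCTD or BTBD protein is an established Cul3 adaptor. Because 1 scaffold serves many adaptors, the set of adaptors that a cell expresses shapes which proteins its Cul3 ligases can reach. In lymphocytes, adaptors of this kind are known to act on B cell receptor signalling, on metabolism and, through partnership of Cul3 with BTB zinc finger proteins, on T cell programs.

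The cells were sorted CD4 single-positive thymocytes, which have chosen the CD4 lineage but not yet left the thymus, from mice on the B6 background. The 2 arrays labelled LM came from mice of genotype CD4Cre-Cul3fl/fl, with floxed Cul3 and no Cre, and the 2 arrays labelled KO from mice of genotype CD4 Cre+Cul3fl/fl, in which Cre is driven by Cd4 regulatory elements. Both groups carried the floxed alleles, and with no group of Cre without floxed Cul3 an effect of Cre cannot be told apart from one of Cul3 removal. Per the labels, the sort excluded cells with CD25, CD1d-PBS57 tetramer or gamma delta receptor staining. Neither ages nor the animal behind each array are given in the labels, so the p-values cover the spread between samples of unknown independence, which could be technical.

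Values are the deposited signal intensities, on a linear scale on which the trimmed mean of each array was 500.0. An array's background was taken from 80 probe sets of olfactory and vomeronasal receptors, at their 95th percentile, which was 83.4 to 109 in signal over the 4 arrays. Correlations within groups were 0.974 for the LM pair and 0.964 for the pair labelled KO. Of the 8 markers listed for CD4 single-positive T cells, 7 were measured and 7 were above background on all 4 arrays. Among markers of other cells, Ms4a1 and Pax5 of B cells, Hba-a1 of red cells and Foxn1, Krt5 and Krt8 of thymic epithelium were below background on all 4 arrays, while Cd79a of B cells and Alas2 of red cells exceeded it on 3. Of the 4 markers of double-positive thymocytes, Rag1 and Arpp21 exceeded background on all 4 arrays, Rag2 on 3 and Ptcra on 0, and their summed signal was 449 and 676 on LM arrays against 452 and 916 on those labelled KO. Cd8a, Cd8b1 and Runx3 of the cytotoxic lineage, Zbtb16 of NKT cells, Sox13 of gamma delta T cells, Cd68 of myeloid cells and Epcam of epithelium also exceeded background on all 4, and the other myeloid markers on 1 or 2. The summed signal of 11 markers of dividing cells was 16890 and 18254 on LM arrays against 8167 and 8837 on those labelled KO. That of the 3 regulatory T cell markers was 3053 and 2950 against 4711 and 4053. Of these 3, Foxp3 had overlapping groups, at 498.7 and 288.5 against 794.3 and 362.9. None of the 3 had an adjusted p below 0.05 in limma (smallest 0.221). The part of these cell populations in the adaptor values was not tested.

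The Cul3 scaffold had overlapping groups. Its brightest probe set had signals of 5333 and 5724 on LM arrays against 5380 and 5577 on those labelled KO, a difference of -0.01 ± 0.09 (log2, SE). Over the alternative settings, which include the mean of its probe sets, the Cul3 difference ran from -0.06 to 0.04. Where these probe sets lie relative to the floxed exons is not given in the sources used here. They therefore check nothing about the deletion, and every direction below rests on the labels. Keap1, which the rule left out, read 1675 and 1720 against 1743 and 1437 (log2 difference -0.09 ± 0.16, SE), or 0.21 with the mean of its probe sets.

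The comparison asked whether adaptor RNA differed between thymocytes with and without Cre. None of the adaptors passed the threshold: of 60 tested, 0 were higher and 0 lower on the arrays labelled KO (limma, adjusted p below 0.05 over 11255 genes). Among all tested genes 0.275% passed, 0.133% higher and 0.142% lower. At an unadjusted p below 0.05 there were 6 adaptors, 4 lower (Ibtk, Klhl26, Btbd3 and Btbd11) and 2 higher (Klhl24 and Kctd2), 10% of the 60 against 8.40% of all tested genes. The smallest adjusted p was 0.184, for Ibtk. Differences are on the scale of log2(signal + 16) after quantile normalization, as the value on the arrays labelled KO minus that on the LM arrays, and this scale understates the changes of dim genes.

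The differences of the adaptors lay on both sides of 0. Of the 60, 33 were lower and 27 higher, with a median difference of -0.03, beside 0.0018 over all tested genes. The groups did not overlap for 25 adaptors, 41.7% of those tested, while 37.4% of all tested genes had groups that did not overlap. Differences reached 0.5 in size for 7 adaptors, all 7 lower on the arrays labelled KO (11.7%) and 0 higher. Among all tested genes 5.80% were lower and 6.41% higher by as much. Of the 7, Btbd3, Klhl5 and Kbtbd6 passed the background filter only through the LM arrays, where they were high. Btbd18 exceeded background on only 1 array labelled KO. Ibtk, Klhl26 and Btbd11 exceeded it on all 4 arrays. The part of the filter in the one-sided count was not tested. In bulk samples such as these, fewer cells of a type and less RNA per cell cannot be told apart.

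**Figure D1:**
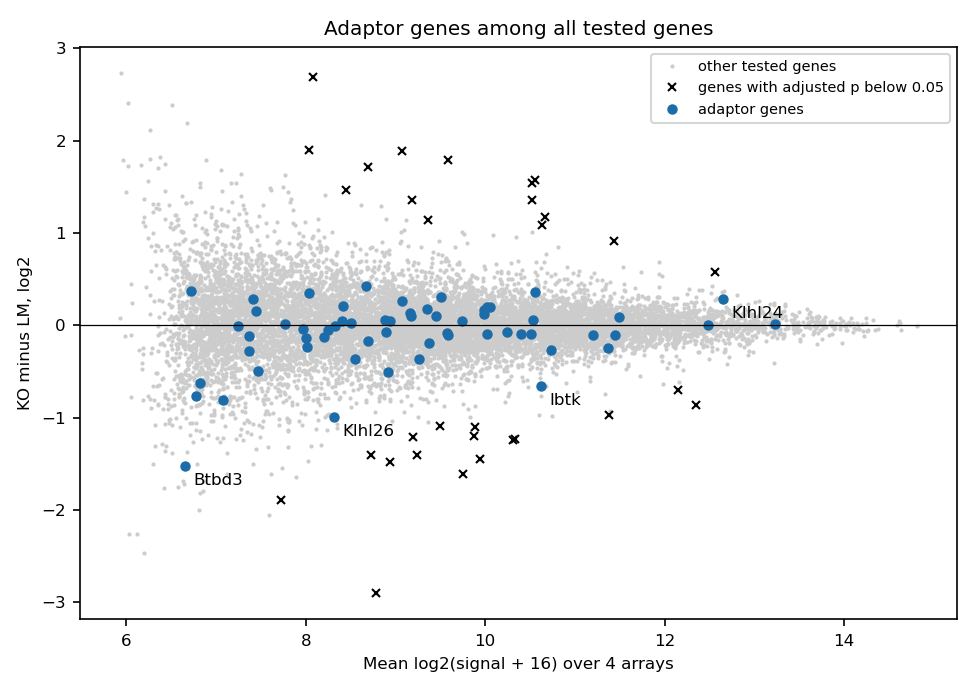
Difference between the arrays labelled KO and the LM arrays (vertical axis, log2) against mean log2(signal + 16) over 4 arrays (horizontal axis) for 11255 tested genes. The 60 adaptor genes (blue) lie within the cloud of the other genes (grey), none is among the 31 genes with an adjusted p below 0.05 (crosses), and the lowest is Btbd3 at -1.52.

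The range of differences that the values of each gene allow is given by the 95% intervals of limma, which are not adjusted for the number of genes. They do not give the size of difference that the threshold could detect. For 48 of the 60 adaptors (80%) the interval lay within 2-fold in both directions, beside 75.9% of all tested genes. It lay within 1.5-fold for 22 adaptors (36.7%, beside 38.4%). The intervals of 12 adaptors reached past 2-fold: Ibtk, Klhl5, Klhl8, Klhl15, Klhl18, Klhl26, Kbtbd6, Btbd3, Btbd17, Btbd18, Kctd14 and Kctd21. With 2 arrays against 2, the exact permutation test of a single gene cannot go below a two-sided p of 0.333.

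**Figure D2:**
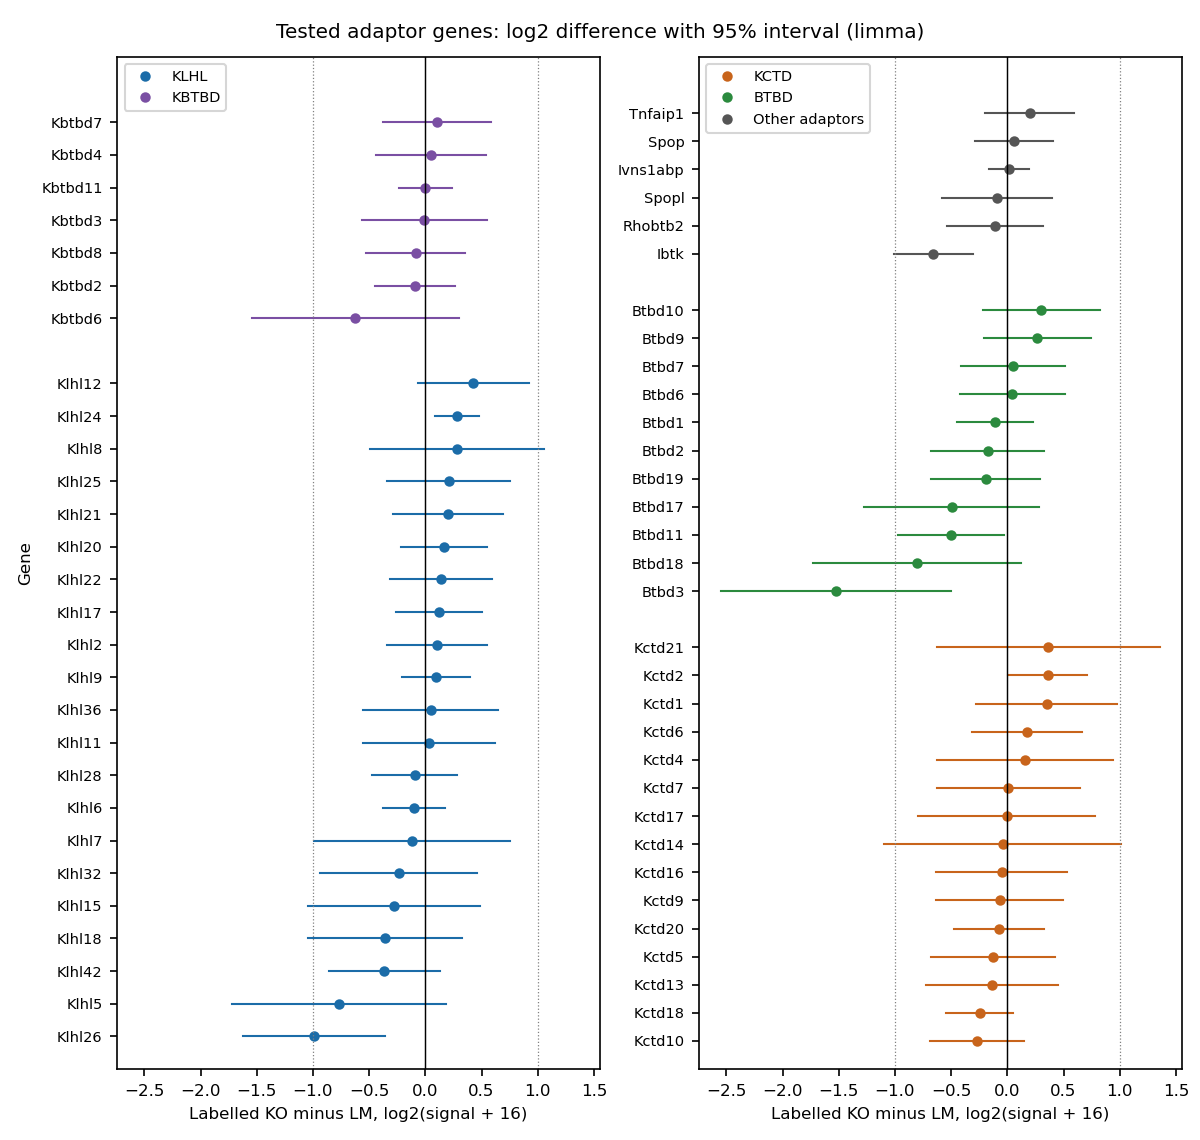
Log2 difference (horizontal axis, labelled KO minus LM) for each of the 60 tested adaptors (rows, by family), with points for the estimates and bars for the 95% interval of limma; dotted lines mark 2-fold. Most bars cross 0, and the intervals of Ibtk, Klhl26, Btbd3, Btbd11, Klhl24 and Kctd2 do not.

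Of the 78 adaptors, 60 exceeded background on at least 2 arrays and were tested. Among these, 55 exceeded it on all 4 arrays, with a median difference of -0.0056 beside -0.00078 over all genes of that kind. A further 4 exceeded it only on both arrays of 1 group, and so were tested only through the group where they were high. The last, Btbd18, exceeded it on 3 arrays.

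The other 18 adaptors were not tested, and 16 of them were below background on all 4 arrays. These included the skeletal muscle proteins Klhl40, with signals of 6.1 to 19.8, and Klhl41, with 17.5 to 55.0, and the neuronal Klhl1, with 5.9 to 10.1. Klhl13, a partner of Klhl9 in removing Aurora B from mitotic chromosomes, read 11.2 to 79.9, and Rhobtb1 25.9 to 62.9. The remaining 11 were Kbtbd12, Kbtbd13, Kctd8, Kctd12b, Kctd15, Klhl4, Klhl14, Klhl29, Klhl30, Klhl33 and Klhl35. Klhl10, a spermatid protein, exceeded background on 1 array labelled KO only (114), and Klhl23 on 1 LM array only (128).

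Among the kelch adaptors of the KLHL family, 21 of 33 genes were tested, 12 higher and 9 lower, with a median of 0.05 and a range from -0.99 to 0.43. Klhl26 had the lowest value. Its signals were 553 and 333 on LM arrays against 177 and 250 on those labelled KO. Both LM arrays were above both others, although the LM arrays also lay well apart from each other. The log2 means were 8.81 ± 0.45 and 7.82 ± 0.30 (SD, n = 2 each), and the difference of -0.99 ± 0.29 (SE) did not pass in limma (adjusted p = 0.301). It ran from -1.31 to -0.68 when single arrays were left out.

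Klhl24, an adaptor known for acting on keratin intermediate filaments, had a narrow interval. Its brightest probe set read 5740 and 5934 on LM arrays against 6899 and 7227 on those labelled KO. The replicates lay close together and the groups apart, but the difference was small, 0.28 ± 0.09 (SE, limma adjusted p = 0.351), with an interval of 106% to 139% of the LM signal. Klhl12, which acts on the Sec31 coat of vesicles leaving the endoplasmic reticulum, was also above on both arrays labelled KO. It read 347 and 326 against 421 and 499, a difference of 0.43 ± 0.23 (SE, adjusted p = 0.690). Klhl42, which targets the microtubule-severing katanin, read 662 and 712 against 631 and 438. Its difference of -0.36 ± 0.23 came mostly from 1 array labelled KO, and without that replicate 2 it was -0.10.

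None of the kelch adaptors with roles in lymphocytes, mitosis and metabolism passed the threshold. Klhl6, which is needed for B cell receptor signalling, read 2909 and 2840 on LM arrays against 2577 and 2724 on those labelled KO. Its groups did not overlap, and its interval ran from 77.0% to 113% of the LM signal. Klhl9 read 2478 and 3109 against 2778 and 3108, with an interval of 86.4% to 132%. Klhl21, a further Aurora B adaptor, read 840 and 1148 against 932 and 1353, with an interval of 82.1% to 161%. Its difference ran from -0.06 to 0.46 when single arrays were left out. The arrays of a group lay further apart than the group means for both genes, and the groups overlapped.

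Klhl20, which regulates the autophagy kinase Ulk1 and the tumour suppressor Pml, read 981 and 915 against 1043 and 1075. Klhl22, which targets the mitotic kinase Plk1 and the mTORC1 regulator Depdc5, read 501 and 565 against 588 and 581. Klhl2, an adaptor of WNK kinases, read 556 and 522 against 596 and 563. In these 3 genes both arrays labelled KO were above both LM arrays, but no difference exceeded its standard error, at 0.17 ± 0.17, 0.14 ± 0.21 and 0.10 ± 0.20. For Klhl20 the second probe set differed by -0.19, and the mean of both by -0.01. Klhl22 differed by 0.02 without LM replicate 1. Klhl25, which targets the translation repressor 4E-BP1 and the lipid enzyme Acly, read 296 and 307 against 397 and 316, a difference of 0.21 ± 0.25 that was 0.02 without KO replicate 1 and -0.18 with the mean of its probe sets. Klhl5, a dim member, read 135 and 114 against 79.7 and 62.1, above background only on the LM arrays. With the others set to background, its LM mean was 1.38-fold higher, a ratio that carries no error. Its fitted interval ran from 30.4% to 114% of the LM signal (limma adjusted p = 0.719).

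**Figure D3:**
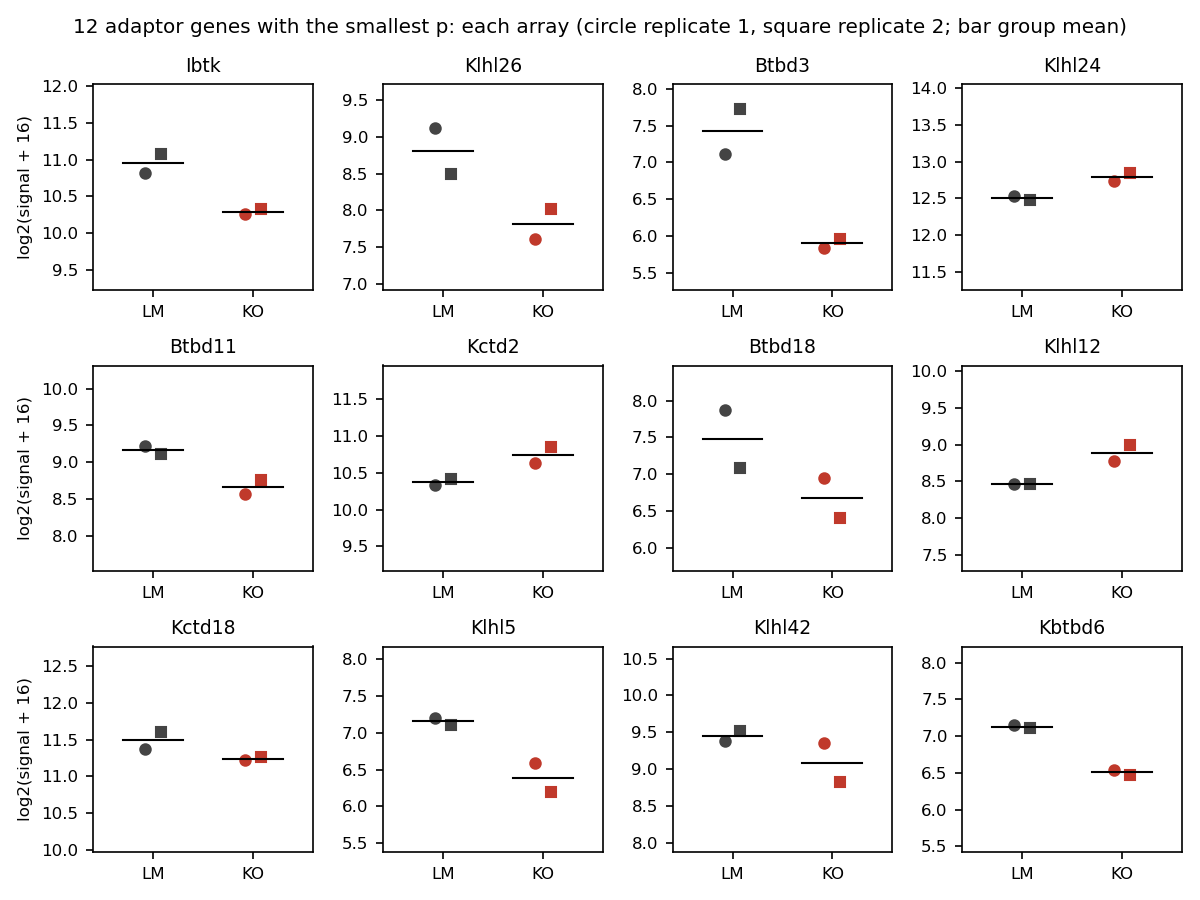
Each array's log2(signal + 16) (vertical axis, spanning 2.8 log2 units in every panel) for the 12 adaptors with the smallest p, in LM (grey) and labelled KO (red); circles are replicate 1, squares replicate 2 and bars group means. The groups are separate in all 12 panels, as a choice by smallest p favours, and the gap is widest for Btbd3.

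In the related KBTBD family 7 of 9 genes were tested, 2 higher and 5 lower, with a median of -0.01. Kbtbd2, which controls the level of a regulatory subunit of phosphoinositide 3-kinase, read 1316 and 1455 on LM arrays against 1285 and 1292 on those labelled KO. Its groups did not overlap (-0.09 ± 0.16, SE). Kbtbd4, an adaptor of the CoREST corepressor, read 514 and 387 against 477 and 454. Kbtbd6, which with Kbtbd7 targets the Rac activator Tiam1, was above background only on the LM arrays. It read 130 and 113 there against 76.9 and 78.4, or 1.35-fold higher by group means with the latter set to background. Its fitted difference was -0.62 ± 0.42 (limma adjusted p = 0.786), with an interval of 34.3% to 123% of the LM signal. Leaving Kbtbd6 aside, the family spanned -0.09 to 0.10. Ivns1abp, a kelch protein first known for binding an influenza protein, read 9242 and 9731 against 9179 and 10050, with an interval of 89.2% to 114% of the LM signal, and its difference of 0.01 turned to -0.03 under median centring.

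In the KCTD family 15 of 18 genes were tested, 6 higher and 9 lower, with a median of -0.04 and a range from -0.27 to 0.37. Kctd2, a close relative of Kctd5, was the member with the smallest p. It read 1279 and 1359 on LM arrays against 1577 and 1818 on those labelled KO. Both latter arrays were above both LM arrays, with a difference of 0.36 ± 0.16 (SE, limma adjusted p = 0.583). Kctd5, an adaptor acting on G protein beta-gamma subunits, read 296 and 285 against 271 and 265, without overlap. Its difference was -0.13 ± 0.25, but its second probe set differed by 0.38 and the mean of both by 0.13. Kctd18 read 2614 and 3167 against 2377 and 2436 (-0.25 ± 0.14), and -0.13 without LM replicate 2. Kctd9 read 390 and 585 against 395 and 510, with wider gaps within groups than between them.

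The 3 adaptors that target the GTPase RhoA, Tnfaip1, Kctd10 and Kctd13, had differences of both signs. Tnfaip1 read 945 and 964 on LM arrays against 1206 and 989 on those labelled KO, a difference of 0.20 ± 0.18 (SE) that was 0.06 without KO replicate 1 and 0.33 without KO replicate 2. Kctd10 read 1566 and 2211 against 1759 and 1342, a difference of -0.27 ± 0.19 that ran from -0.51 to -0.03 when single arrays were left out. Kctd13 read 265 and 239 against 223 and 238, without overlap, a difference of -0.14 ± 0.27. The limma adjusted p-values were 0.853, 0.801 and 0.949. Kctd21, which acts on the Hedgehog pathway through histone deacetylase 1, exceeded background only on the arrays labelled KO, at 104 and 109 against 100.2 and 54.5. The background differed between arrays, at 108.67 on LM replicate 1 and 97.45 on KO replicate 1. With the LM values set to background, the mean labelled KO was 1.04-fold higher, a ratio that carries no error. Its fitted interval ran from 64.8% to 256% of the LM signal (limma adjusted p = 0.903). The fitted difference of 0.37 was 0.07 without LM replicate 2 and 0.66 without LM replicate 1.

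All 11 genes of the BTBD family were tested, 4 higher and 7 lower, with a median of -0.18. Btbd3, known for orienting dendrites of neurons, had the largest difference of any adaptor. Its brightest probe set read 126 and 186 on LM arrays against 41.1 and 50.3 on those labelled KO. It was above background on both LM arrays and below it on both others, and so was tested only through the LM arrays. With the others set to background, the LM mean was 1.65-fold higher, a ratio that carries no error. The fitted difference was -1.52 ± 0.47 (SE, limma adjusted p = 0.334), with an interval of 17.1% to 70.7% of the LM signal. Btbd18, a regulator of piRNA production in the male germline, read 225 and 112 against 107 and 74.1, with an LM gap almost as wide as the difference of -0.81 ± 0.43 (adjusted p = 0.685), which was -0.41 without LM replicate 1 and -1.20 without LM replicate 2.

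Btbd11, an ankyrin repeat and BTB protein, had brighter signals. It read 591 and 525.5 on LM arrays against 359 and 419 on those labelled KO, a difference of -0.50 ± 0.22 (SE, limma adjusted p = 0.558). The topoisomerase-binding relatives Btbd1 and Btbd2 overlapped between the groups. Btbd1 read 2604 and 2251 against 2537 and 1995, and Btbd2 read 408 and 445 against 339 and 409. Btbd6, known from neural development as an adaptor for the BTB zinc finger factor PLZF, read 461 and 473 against 459 and 503, and its difference of 0.04 ± 0.21 turned negative (-0.0092) under median centring.

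The MATH domain adaptors Spop and Spopl, which bring BET proteins, Gli factors and Daxx to Cul3, differed by less than their replicates. Spop read 1524 and 1354 on LM arrays against 1439 and 1546 on those labelled KO, with an interval of 81.8% to 133% of the LM signal. Spopl read 1185 and 938 against 785 and 1219, and its difference ran from -0.41 to 0.22 when single arrays were left out. Rhobtb2 read 731 and 853 against 746 and 700.3, also with overlap.

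Ibtk, an ankyrin and BTB protein named for inhibiting Bruton's tyrosine kinase, came closest to the threshold. Its brightest probe set read 1783 and 2154 on LM arrays against 1211 and 1255 on those labelled KO. Both LM arrays were above both others by more than the spread within either group, with log2 means of 10.95 ± 0.18 and 10.29 ± 0.05 (SD, n = 2 each). The difference of -0.66 ± 0.16 (SE) had an unadjusted p of 0.0015 and an adjusted p of 0.184 in limma, and an interval of 49.7% to 80.8% of the LM signal. It ran from -0.79 to -0.53 when single arrays were left out. The second probe set of Ibtk did not show this, reading 9.35 and 9.30 against 9.47 and 9.25 on the log2 scale (difference 0.04).

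Such disagreement between probe sets of 1 gene was common. Of the adaptors, 47 had more than 1 probe set, and for 35 at least 2 were above background on at least 2 arrays. The signs of all tested probe sets agreed for 10 of these 35 (28.6%), beside 43.6% of the 5708 such genes over the whole array. For the 2 brightest probe sets alone they agreed for 14 of 35 (40%), beside 58% of all such genes. With the mean of all probe sets of a gene the sign turned for 5 of the 34 named adaptors, Klhl20, Klhl25, Kctd5, Spop and Rhobtb2. Probe sets of a gene can report different transcript ends, and where they lie was not used here.

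Among the 6 adaptors at an unadjusted p below 0.05, the probe sets agreed in sign for Btbd11 and Kctd2. The 3 probe sets of Btbd11 differed by -0.50, -0.71 and -0.13, and the 2 of Kctd2 by 0.36 and 0.63. For Klhl24 they did not: its 5 probe sets, from the brightest down, differed by 0.28, -0.02, 0.13, -0.07 and 0.42. The brightest one carries the suffix x, with which the manufacturer marks probe sets whose probes may also bind other transcripts. Klhl26 had only 1 probe set, and of the 3 of Btbd3 only 1 was tested. The second probe set of Btbd3, above background on 1 array only, read 8.9 and 21.5 on LM arrays against 99.8 and 47.6 on those labelled KO, a difference of 1.40 opposite in sign to the -1.52 of the brightest one. The remaining one was below background on all 4 arrays.

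Tested one by one, 10 of 114 adaptor probe sets (8.77%) lay at an unadjusted p below 0.05, beside 7.97% of all 21795, and 0 passed after adjustment in limma. Chosen after their values were seen, 2 probe sets with a lower mean over 4 arrays stood out against the brightest one of their gene. The second probe set of Kctd4 read 245 and 194 on LM arrays against 122 and 52.9 on those labelled KO (-1.32 ± 0.42, SE, adjusted p = 0.383), while the first differed by 0.16. Its value on KO replicate 2 was below background. On LM arrays it was brighter than the first, which read 187 and 112.5 there. The second of Btbd19 read 227 and 296 against 409 and 454 (0.70 ± 0.26, adjusted p = 0.480), while the first differed by -0.19.

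**Figure D4:**
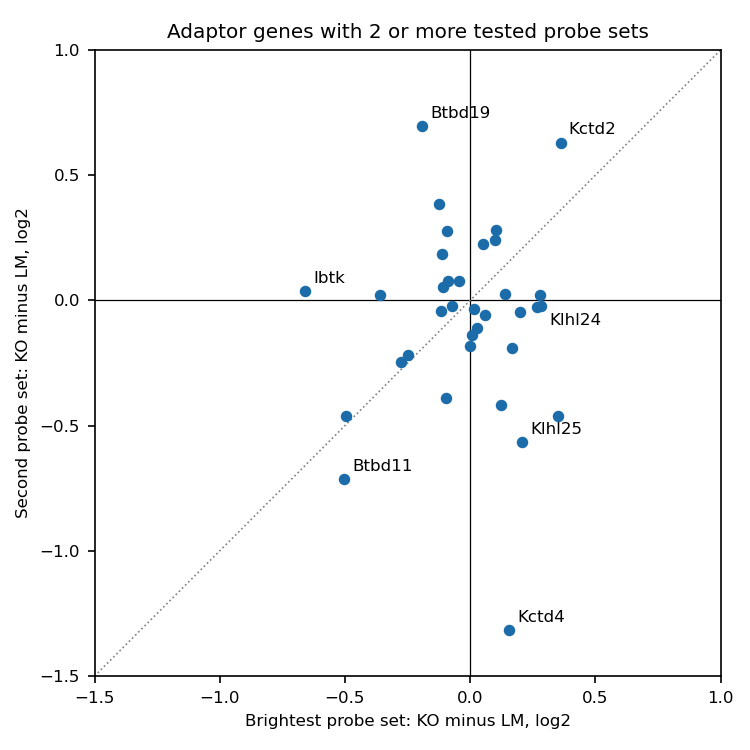
Log2 difference (labelled KO minus LM) of the second brightest probe set (vertical axis) against the brightest (horizontal axis) for the 35 adaptors with at least 2 tested probe sets; the dotted line marks equal values. Only 14 points lie in the quadrants of equal sign, among them Btbd11 and Kctd2, while Ibtk, Btbd19 and Kctd4 lie off the line.

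The rest of the ligase was described from a list of 32 genes for the scaffold, the RING subunit, the neddylation enzymes, Cand exchange factors, COP9 signalosome and partner E2 and E3 enzymes, which also holds Keap1. Of these, 30 were tested, and 0 rose and 0 fell in limma, where 0.275% of all tested genes passed. At an unadjusted p below 0.05 lay 1 of the 30 (3.33%), beside 8.40% of all tested genes. The median difference was -0.04 and all 30 intervals lay within 2-fold, beside 75.9% of all tested genes. All 30 exceeded background on all 4 arrays, and their median SE was 0.17, beside 0.22. Cops5, the deneddylating subunit of the COP9 signalosome, read 1448 and 1582 on LM arrays against 1194 and 1049 on those labelled KO, a difference of -0.43 ± 0.17 (SE, adjusted p = 0.480). Cops8, a further subunit, differed by -0.43 ± 0.23 with overlapping groups, or -0.71 without LM replicate 1 and -0.14 without LM replicate 2. Ube2f, a neddylation E2 enzyme, differed by 0.37 ± 0.18 (limma adjusted p = 0.629), and by 0.06 at the lowest among the alternative settings.

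A list of 30 proteins reported as substrates of these adaptors gave 26 tested genes, with a median of -0.01. Of the 26, 0 rose and 0 fell in limma, where 0.275% of all tested genes passed. At an unadjusted p below 0.05 lay 2 (7.69%), beside 8.40% of all tested genes. Adaptors act on the protein of a substrate, so RNA levels say nothing of its degradation. Aurkb, the mitotic kinase bound by Klhl9, Klhl13 and Klhl21, read 287 and 218 on LM arrays against 85.9 and 144 on those labelled KO, a difference of -1.10 ± 0.34 (SE, adjusted p = 0.349). Its probe set exceeded background on 3 arrays and carries the suffix x, as that of Klhl24 does. Of the 11 measured markers of dividing cells, 7 fell on the arrays labelled KO and 11 were lower, with a median of -1.11, and their part in the Aurkb value was not tested. Daxx, a substrate of Spop, differed by -0.39 ± 0.18 (adjusted p = 0.584) and Arhgef11, a RhoA exchange factor targeted through Klhl20, by -0.34 ± 0.15 (adjusted p = 0.594), both with groups that did not overlap. Daxx was -0.22 without KO replicate 2, and Arhgef11 was -0.13 without LM replicate 2, -0.55 without LM replicate 1 and 0.02 with the mean of its probe sets.

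**Figure D5:**
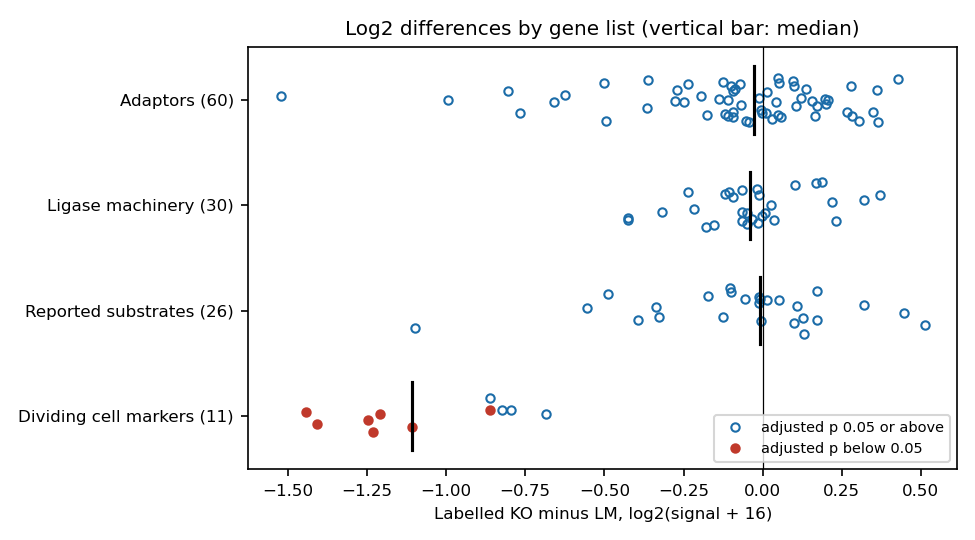
Log2 differences (horizontal axis, labelled KO minus LM) of the tested genes of 4 lists, with 1 point per gene and a vertical bar at each median. The medians of the 60 adaptors (-0.03), 30 machinery genes (-0.04) and 26 substrates (-0.01) lie near 0 with no filled point, while 7 of 11 markers of dividing cells have an adjusted p below 0.05 (filled) around a median of -1.11.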

How the data were processed

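The values are intensities as the authors deposited them, linear and scaled to a common trimmed mean. Per the labels, Trizol-extracted RNA went through WT-Ovation Pico amplification and biotin labelling. How probes were summarised and background was corrected is not given in the sources used here. The array held 45101 probe sets, 64 of them controls, and those with a single gene symbol in the platform annotation were used. Intensities were taken as log2(value + 16) and quantile normalized. Each gene was represented by its brightest probe set and tested if above background on at least 2 arrays (11255 genes). The fit used lmFit and eBayes with an intensity trend from limma 3.58.1 (R 4.3.3), with Benjamini-Hochberg adjustment over all tested genes, and the code was tested on simulated data. Plots used Python 3.11.15, pandas 2.3.3 and matplotlib 3.10.9. The number of arrays limits precision, with a median SE of 0.22.

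The adaptors and gene lists were chosen with earlier results of these data known. Named adaptors were the 12 with the smallest p, tested members of a list of adaptors with known roles, and those above background in 1 group only. Cul3, Keap1 and the 3 machinery and 3 substrate genes with the smallest p were also named. Alternatives covered the filter, normalization, pseudocount, eBayes settings, probe sets, threshold, replicate block and each array left out.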

Additional observations from a re-analysis of the deposited data

How the results depend on the processing

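Under none of the 16 alternatives did an adaptor, machinery or substrate gene pass, with the same fixed lists and limma throughout. The count of all genes passing did move from 31: it was 0 without the filter on dim genes and 0 without the eBayes trend (1247 and 922 at an unadjusted p below 0.05, with 6 adaptors in each), 81 with median centring, 49 at an adjusted p threshold of 0.10, 50 with separate probe sets, and 40 to 97 with single arrays left out, where a lone array is assumed to vary like the other group. The cause was not tested. The adaptor median of -0.0267 was -0.0036 without the filter, -0.0056 with the stricter filter, -0.0762 with median centring, which moved all genes to -0.046, -0.0082 with a pseudocount of 64 and -0.0113 with probe set means, and ran from -0.0472 to -0.0173 with single arrays left out. With the replicate block, 43 genes and 0 adaptors passed. Same-numbered arrays did not deviate together (r = -0.017 over genes). With 2 arrays per group this cannot tell whether same-numbered samples share a batch, and the labels state no pairing. Each named adaptor had a value in 13 to 15 alternatives. The sign held in those for 21 of the 34, including the 12 with the smallest p (for Btbd3, the stricter filter and the mean of probe sets gave no value), and changed in at least 1 for 13, in 10 of them when an array was left out. The groups of the 12 with the smallest p do not overlap, so leaving out an array could not turn their sign. Filter, threshold and eBayes settings leave every difference unchanged, so the held sign says little about these 12. Leaving out an array turned the sign or moved the difference by over 1.5 times for 22 of the 34. Adjusted p-values of Ibtk ran from 0.0645 to 0.617. Signal near background limits the dim adaptors.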
